A study of Caenorhabditis elegans with 12 samples.

Results

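The genes described here are the 3 members of the iron system *ftn-1*, *ftn-2* and *aco-1*, out of 5272 genes with a value in every per-library table of an RNAseq study of the nematode *C. elegans*. *ftn-1* and *ftn-2* encode the ferritins and *aco-1* encodes the cytosolic aconitase. They were selected by name on their levels across the same 3 groups that are compared below, with earlier results of these comparisons known, so the levels and fold changes of the 3 genes are a description and carry no p-value. All 3 were found in the tables, and all 3 passed the filter on low counts in each comparison. The tables hold 3363 of the 19985 annotated protein-coding genes. Ranks and shares over all genes below therefore refer to the listed genes, not to the whole genome.

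The study set the H2S-releasing compound FW1256 beside *eat-2* mutation, a genetic model of calorie restriction, and asked how far their transcriptional effects are shared. The 3 groups had 4 libraries each: WT nematodes (strain Bristol N2) exposed to 500 µM FW1256 from the L1 larval stage on, *eat-2* mutants (strain DA1116) and unexposed WT nematodes. All were pools of whole nematodes, harvested at day 6. By the paper's methods, larvae were first kept in liquid medium with *E. coli* OP50-1 and later moved to agar plates with the same bacteria. The paper reports slower development and a later peak of egg laying for both the compound and the mutation. At equal age the 3 groups may therefore have differed in stage. The part of stage in the differences below was not tested. A protocol note shared by all samples mentions the compound, but the titles and the treatment label give it to 4 libraries only. The *eat-2* mutants are 1 strain, eat less because their pharynx pumps slowly, and carry the mutation in the whole animal. The per-library tables hold 14769332 to 19199982 estimated counts in FW1256-exposed WT, 14842320 to 19170837 in *eat-2* mutants and 15319366 to 19020724 in unexposed WT. These sums run over the listed genes only. The labels do not say that replicates were separate cultures, and p-values given for other genes therefore measure the spread among these libraries.

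Ferritin chains assemble into a hollow shell that stores iron as a mineral and releases it when needed. In *C. elegans*, *ftn-1* is mainly an intestinal gene, while *ftn-2* is expressed more broadly, and neither mRNA carries the iron-responsive element that regulates translation of vertebrate ferritin mRNAs. The worm genes are regulated at transcription instead: the hypoxia factor HIF-1 represses *ftn-1* when iron is scarce, and intestinal GATA factors and DAF-16 promote its expression. ACO-1 is an iron-sulfur enzyme that converts citrate to isocitrate in the cytosol, and its vertebrate homolog IRP1 turns into an RNA-binding protein when it loses its cluster.

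In the WBcel235 annotation, *ftn-1* (WBGene00001500) lies on the minus strand of chromosome V from 7546468 to 7547579 and has 1 transcript of 606 bases in 3 exons. *ftn-2* (WBGene00001501) lies on the minus strand of chromosome I from 3680180 to 3680927, with 1 transcript of 651 bases in 3 exons. *aco-1* (WBGene00000040) lies on the plus strand of chromosome X from 11339874 to 11343327, with 1 transcript of 2831 bases in 8 exons. None of the 3 overlaps another annotated gene.

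*ftn-1* had the widest range of the 3 genes. Its level, in CPM (read counts scaled to a common library total and normalised between libraries), was 1.38, 2.34, 1.57 and 0.975 in FW1256-exposed WT (25.4, 32.9, 24.5 and 15.1 estimated counts). It was 15.3, 15.4, 19.1 and 14.1 CPM in *eat-2* mutants and 58.4, 66.0, 60.5 and 33.7 CPM in unexposed WT. The 3 groups did not overlap: every FW1256-exposed library was below every *eat-2* library, and every *eat-2* library was below every unexposed WT library. The share of all genes without overlap between groups was not counted. Nothing is therefore read from a lack of overlap, here or below. The highest library exceeded the lowest 67.7-fold, and within unexposed WT replicate 4 was the low one.

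*ftn-1* averaged 1.57 ± 0.571 CPM in FW1256-exposed WT and 54.6 ± 14.3 CPM in unexposed WT (SD, n = 4 each), a log2 fold change of -5.14 (standard error, SE, 0.29), or 34.9-fold lower in the exposed nematodes by the ratio of means. Among all 3616 genes tested, 2 had a lower log2 fold change. In *eat-2* mutants it averaged 16 ± 2.15 CPM against 54.6 ± 14.3 CPM in unexposed WT, a log2 fold change of -1.75 (SE 0.20), or 3.42-fold lower, and 14 of 3786 genes had a lower one. The lower level in FW1256-exposed WT than in *eat-2* mutants corresponded to a log2 fold change of -3.39 (SE 0.24), or 10.2-fold. Both comparisons with unexposed WT share the same 4 unexposed libraries. In whole nematodes, fewer cells that express a gene and less RNA per cell cannot be told apart.

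**Figure D1:**
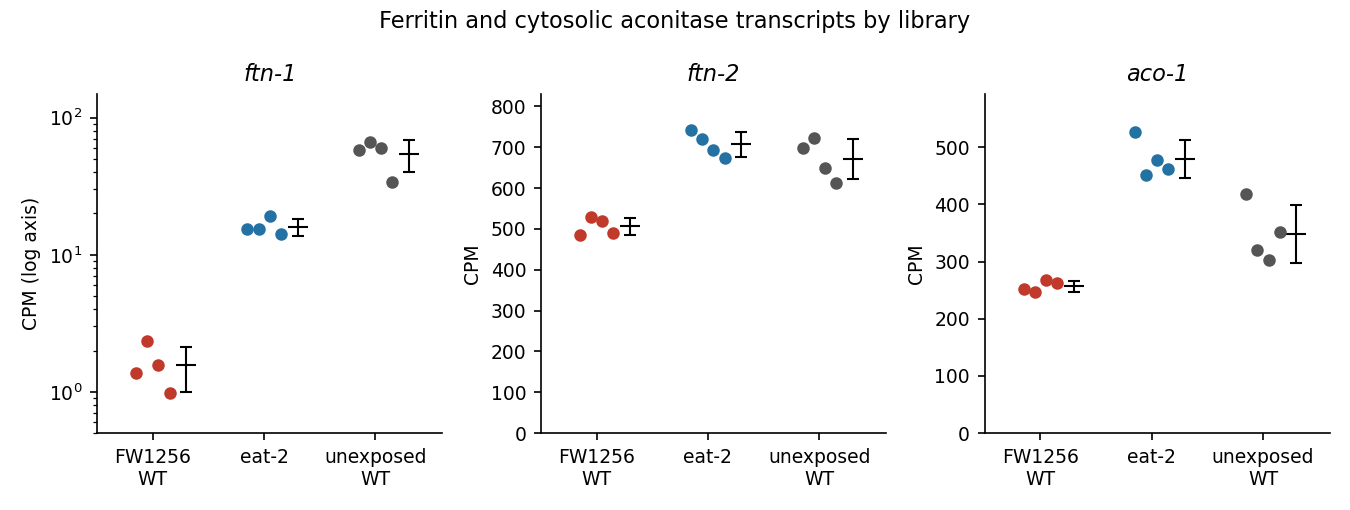
Level of each gene in CPM by library, with FW1256-exposed WT, *eat-2* mutants and unexposed WT from left to right; points are libraries in replicate order and the bar beside them is the mean ± SD (n = 4). The axis of *ftn-1* is logarithmic and its groups sit apart (0.975 to 2.34, 14.1 to 19.1 and 33.7 to 66.0 CPM), while *ftn-2* and *aco-1* span 1.53-fold and 2.14-fold over all 12 libraries.

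The paralog *ftn-2* was the more abundant ferritin transcript and varied much less. It had 486, 528, 519 and 491 CPM in FW1256-exposed WT, 743, 721, 692 and 674 CPM in *eat-2* mutants, and 698, 722, 650 and 613 CPM in unexposed WT. All FW1256-exposed libraries were below all others, whereas *eat-2* mutants and unexposed WT overlapped. It averaged 506 ± 20.9 CPM in FW1256-exposed WT and 671 ± 49.0 CPM in unexposed WT (SD, n = 4 each), a log2 fold change of -0.42 (SE 0.05), or 0.755 times the unexposed level. In *eat-2* mutants it averaged 707 ± 30.4 CPM, a log2 fold change of 0.10 (SE 0.06) against unexposed WT, which did not pass the test that was run over all genes. For FW1256-exposed WT against *eat-2* mutants the log2 fold change was -0.52 (SE 0.05).

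The transcript of cytosolic aconitase, *aco-1*, was lower than in unexposed WT after FW1256 exposure and higher in *eat-2* mutants. It had 252, 246, 267 and 262 CPM in FW1256-exposed WT, 526, 452, 477 and 462 CPM in *eat-2* mutants, and 419, 321, 303 and 352 CPM in unexposed WT. No group overlapped another, which also held for the muscle genes *unc-54*, *unc-15*, *tni-3* and *lev-11*. It averaged 257 ± 9.75 CPM in FW1256-exposed WT against 349 ± 50.9 CPM in unexposed WT (SD, n = 4 each), with a log2 fold change of -0.45 (SE 0.09), and 479 ± 32.7 CPM in *eat-2* mutants, with a log2 fold change of 0.48 (SE 0.09) against unexposed WT. Between FW1256-exposed WT and *eat-2* mutants the log2 fold change was -0.94 (SE 0.05), or 0.536 times the level of the mutants.

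Counted over the 3 genes, all 3 were called lower in FW1256-exposed WT than in unexposed WT, where 50.2% of all genes tested were called in either direction and 24.8% were called lower (called: under 0.05 in the quasi-likelihood test of edgeR, after Benjamini-Hochberg adjustment over all genes tested). In *eat-2* mutants against unexposed WT, *ftn-1* was called lower and *aco-1* higher, with 44.2% of genes called in either direction. All 3 were called lower in FW1256-exposed WT than in *eat-2* mutants, where 69.3% of genes were called and 36.2% were called lower. Because the genes were chosen on these comparisons, nothing is read from their counts. The split of all calls for FW1256 against unexposed WT depends on the scaling: 922 genes were called higher and 895 lower, against 691 higher and 1055 lower with library size alone. In the list of all tested genes, *ftn-2* and *aco-1* stood far from the lowest: 860 genes had a lower log2 fold change than *ftn-2* and 813 a lower one than *aco-1* in FW1256-exposed WT.

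**Figure D2:**
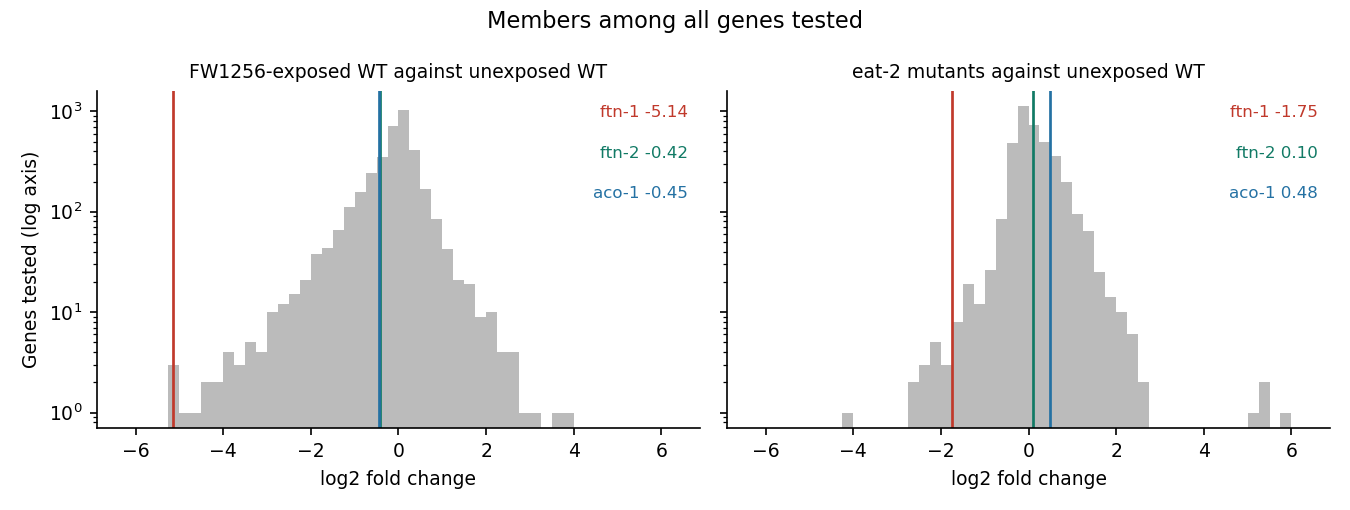
Number of tested genes (logarithmic axis) by log2 fold change against unexposed WT, for FW1256-exposed WT on the left (3616 genes) and *eat-2* mutants on the right (3786 genes); vertical lines mark the 3 genes. *ftn-1* lies in the low tail of both (-5.14 and -1.75), *ftn-2* (-0.42 and 0.10) and *aco-1* (-0.45 and 0.48) within the bulk.

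Levels of different genes were compared per length of transcript. In CPM per kilobase (kb), *ftn-1* averaged 2.58 ± 0.942 in FW1256-exposed WT, 26.4 ± 3.54 in *eat-2* mutants and 90.2 ± 23.6 in unexposed WT (SD, n = 4 each). *ftn-2* averaged 778 ± 32.0, 1090 ± 46.7 and 1030 ± 75.2 CPM per kb in FW1256-exposed WT, *eat-2* mutants and unexposed WT. The share of *ftn-1* in the summed ferritin transcripts was 0.304%, 0.473%, 0.325% and 0.213% in FW1256-exposed WT. It was 2.17%, 2.25%, 2.88% and 2.20% in *eat-2* mutants and 8.24%, 8.94%, 9.08% and 5.58% in unexposed WT. Thus *ftn-2* supplied most of the ferritin mRNA in each library, and the *ftn-1* share separated the 3 groups without overlap.

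The sum of both ferritin transcripts was 780 ± 32.8 CPM per kb in FW1256-exposed WT (749 to 815), 1110 ± 46.6 in *eat-2* mutants (1060 to 1170) and 1120 ± 96.0 in unexposed WT (997 to 1220). The summed level of *eat-2* mutants lay inside the range of unexposed WT, although *ftn-1* was lower in every mutant library. The 4 FW1256-exposed libraries had lower sums than all other libraries.

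*aco-1* was also set against *aco-2*, which encodes the mitochondrial aconitase of the citric acid cycle. The ratio of *aco-1* to *aco-2*, both in CPM per kb, was 0.299 ± 0.0218 in FW1256-exposed WT (0.268 to 0.320), 0.700 ± 0.0807 in *eat-2* mutants (0.594 to 0.764) and 0.404 ± 0.0947 in unexposed WT (0.322 to 0.514; SD, n = 4 each). FW1256-exposed and unexposed WT libraries nearly met, while all *eat-2* libraries stood above both. *aco-2* itself had a log2 fold change of -0.04 in FW1256-exposed WT against unexposed WT (SE 0.07, adjusted p = 0.674, edgeR) and was lower in *eat-2* mutants, with a log2 fold change of -0.33 (SE 0.09, adjusted p = 0.0167). Without *eat-2* replicate 3, the *aco-2* comparison of *eat-2* mutants had an adjusted p of 0.0504. *aco-2* overlaps C06G4.4 in position, and the strand setting of the counting is not given. Whether reads of the pair were mixed in its level or in the ratio was not tested. The ratio of *ftn-2* to *aco-1* was 8.59 ± 0.526 in FW1256-exposed WT, 6.43 ± 0.345 in *eat-2* mutants and 8.48 ± 1.25 in unexposed WT, and its mean in FW1256-exposed WT lay inside the range of unexposed WT (7.25 to 9.78).

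**Figure D3:**
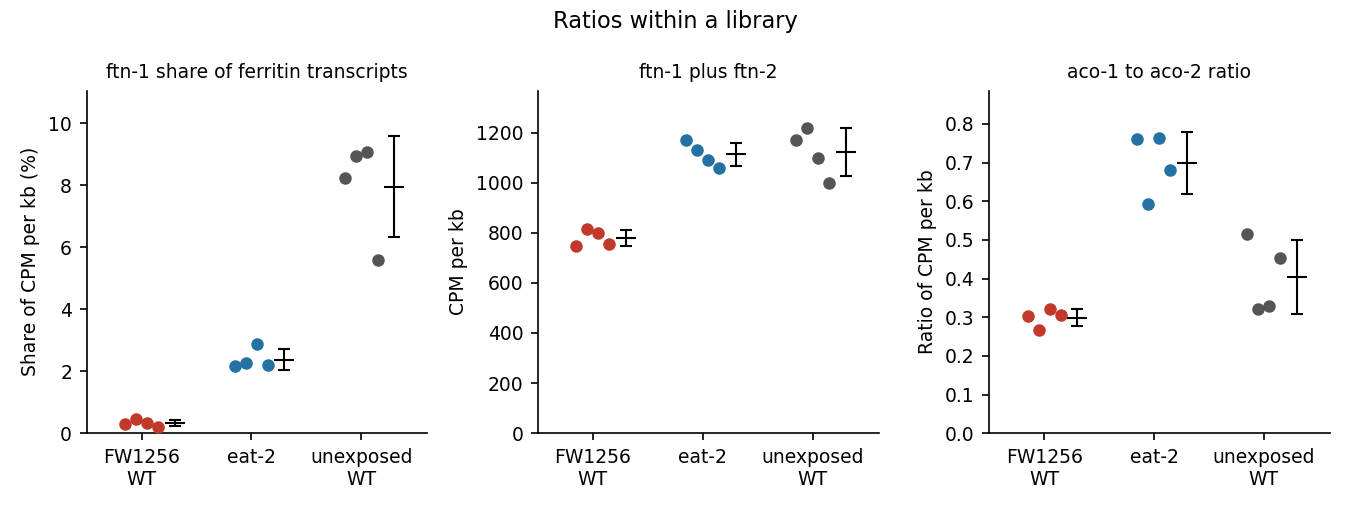
Share of *ftn-1* in the ferritin transcripts (%), sum of *ftn-1* and *ftn-2* (CPM per kb) and ratio of *aco-1* to *aco-2* (both in CPM per kb), by library, with FW1256-exposed WT, *eat-2* mutants and unexposed WT from left to right and the mean ± SD (n = 4) beside the points. The *ftn-1* share averaged 0.329%, 2.37% and 7.96%, while the summed ferritin level of *eat-2* mutants lay within the range of unexposed WT.

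Markers of cell types were read beside these levels, because *ftn-1* is mainly intestinal and bulk RNA mixes tissues. Of 17 listed intestine markers, 3 were in the tables: *vit-2* (a vitellogenin), *act-5* (the actin of intestinal microvilli) and *asp-1* (an aspartic protease). Their summed level was 27495 to 31618 CPM in FW1256-exposed WT, 33750 to 37520 CPM in *eat-2* mutants and 27223 to 30875 CPM in unexposed WT. None of the 3 was called lower in either comparison with unexposed WT. In FW1256-exposed WT 2 were called higher and 1 was not called, where 922 of 3616 genes were called higher and 50.2% in either direction. In *eat-2* mutants all 3 were called higher, where 825 of 3786 genes tested were called higher and 44.2% in either direction. Most of this sum is *vit-2*, a yolk gene. Without *vit-2*, the sum of *act-5* and *asp-1* was 2600 to 2890 CPM in FW1256-exposed WT, 4400 to 5210 CPM in *eat-2* mutants and 1880 to 2330 CPM in unexposed WT, so that the groups did not overlap and unexposed WT was the lowest, where *ftn-1* was the highest.

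Germline transcripts differed between the groups as *aco-1* did, in the opposite direction. Of 12 listed germline markers, 4 were in the tables (*pgl-1*, *gld-1*, *oma-2* and *rme-2*), and their sum was 10475 to 10909 CPM in FW1256-exposed WT, 6794 to 7508 CPM in *eat-2* mutants and 8694 to 9676 CPM in unexposed WT. In FW1256-exposed WT 2 of the 4 were called higher than in unexposed WT and none lower. Over all 3616 genes tested there, 922 were called higher and 50.2% in either direction. In *eat-2* mutants all 4 were called lower, where 849 of 3786 genes tested were called lower and 44.2% in either direction. Within unexposed WT, replicate 1 had the highest *aco-1* level (419 CPM) and the lowest germline sum. Replicate 3 had the lowest *aco-1* level (303 CPM) and the highest germline sum. The other libraries did not follow this order: replicate 4 was above replicate 2 in *aco-1* (352 and 321 CPM) and in germline sum (9217.6 and 9001.5 CPM). Body muscle markers (4 of 8 in the tables) summed to 2495 to 2796 CPM in FW1256-exposed WT, 1595 to 2022 CPM in *eat-2* mutants and 1128 to 1321 CPM in unexposed WT. The part of such differences in tissue content, or of reproductive stage, in the levels of *aco-1*, *ftn-1* and *ftn-2* was not tested.

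**Figure D4:**
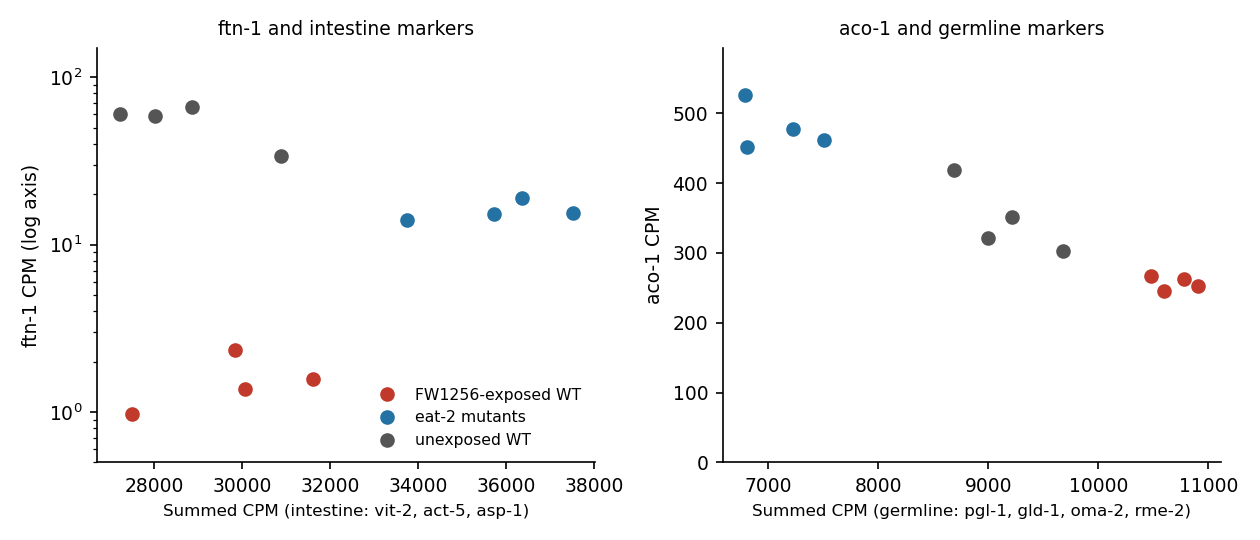
Left, *ftn-1* in CPM (logarithmic axis) against the summed CPM of 3 intestine markers; right, *aco-1* in CPM against the summed CPM of 4 germline markers. Each point is a library, coloured by group. The intestine sums of FW1256-exposed WT (27495 to 31618 CPM) and unexposed WT (27223 to 30875 CPM) overlap while *ftn-1* does not. Most of this sum is *vit-2*: without it, it is 2600 to 2890 CPM in FW1256-exposed WT and 1880 to 2330 CPM in unexposed WT. Between the groups, *aco-1* is high where the germline sum is low.

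Other genes of iron handling were taken from lists chosen with earlier results known. The lists of iron storage, iron transport, aconitases, iron-sulfur clusters and heme name 48 genes with the 3 members, and 17 of them were in the tables. Without the members, 12 were tested in FW1256-exposed WT against unexposed WT: 3 were called higher, 3 lower and 6 were not called, where 50.2% of all genes tested were called, with a median log2 fold change of -0.01, against 0.00 over all genes. In *eat-2* mutants 11 were tested against unexposed WT, of which 3 were called higher and 5 lower, with a median of 0.11, against 0.02 over all genes. Of all 3786 genes tested there, 825 were called higher and 849 lower, or 44.2% in either direction. No other iron gene tested had a log2 fold change below -0.49 in FW1256-exposed WT.

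For export of iron, *fpn-1.1*, which encodes a ferroportin, was lower in FW1256-exposed WT than in unexposed WT by a log2 fold change of -0.45 (SE 0.11, adjusted p = 0.00736, edgeR), a difference of the size seen for *ftn-2* and *aco-1*. In *eat-2* mutants it had a log2 fold change of 0.11 (adjusted p = 0.336). It overlaps *npp-13*, and the use of strand in counting is not given in the sources used here. F21D5.3, which encodes a multicopper oxidase, had -0.49 in FW1256-exposed WT (adjusted p = 0.0413), a call that was lost in 8 of 15 alternatives. Among these were the fits without FW1256-exposed WT replicates 1, 3 or 4 and without unexposed WT replicates 1, 3 or 4, with an adjusted p of up to 0.117. The importer gene *smf-1* was listed at 0 in all 12 libraries, and *smf-3* was not analysed here.

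Among iron-sulfur genes the differences were small and ran both ways. *lias-1*, for lipoyl synthase, followed the directions of *aco-1*, with a log2 fold change of -0.23 in FW1256-exposed WT (adjusted p = 0.00112) and 0.16 in *eat-2* mutants (adjusted p = 0.0107), both against unexposed WT. Y54G11A.9 ran the other way, with 0.17 (adjusted p = 0.00667) and -0.21 (adjusted p = 0.016), but the call in *eat-2* mutants was lost without *eat-2* replicate 1 or 3 (adjusted p of up to 0.059), that in FW1256-exposed WT was lost with library size alone (adjusted p = 0.0502), and it overlaps *lin-7*. *sdhb-1*, the iron-sulfur subunit of succinate dehydrogenase, had 0.01 in FW1256-exposed WT (adjusted p = 0.744) and was lower in *eat-2* mutants, by -0.17 (adjusted p = 0.0109). *nduf-7*, for a complex I subunit, had -0.05 (adjusted p = 0.422) and 0.16 (adjusted p = 0.0438), and the second call was lost in 10 of 15 alternatives, including the fits without any 1 of the *eat-2* replicates (adjusted p of 0.0523 without replicate 4) and without unexposed WT replicates 1, 3 or 4 (0.115 without replicate 3).

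Among the iron genes tested in FW1256-exposed WT, the 2 largest increases were in genes of heme handling. *hrg-4*, which encodes an intestinal importer of dietary heme, had 23.8, 25.9, 22.4 and 18.1 CPM in FW1256-exposed WT, 9.46, 14.3, 9.19 and 8.36 CPM in *eat-2* mutants, and 4.33, 6.32, 6.2 and 3.29 CPM in unexposed WT. The groups did not overlap, and their order was the reverse of that of *ftn-1*. This order is not particular to *hrg-4*: the muscle genes *unc-54*, *unc-15*, *tni-3* and *lev-11* had it too, without overlap. The log2 fold change was 2.15 in FW1256-exposed WT (SE 0.22, adjusted p = 5.34e-05) and 1.06 in *eat-2* mutants (SE 0.26, adjusted p = 0.00894), each against unexposed WT (edgeR). Between FW1256-exposed WT and *eat-2* mutants it was 1.08 (SE 0.19, adjusted p = 0.000576). *hrg-7*, whose product is a secreted protease-like signal of heme status, had 6.95, 16.4, 14 and 8.26 CPM in FW1256-exposed WT against 0, 0, 4.32 and 1.87 CPM in unexposed WT, with an adjusted p of 0.0384. This call was lost in 9 of 15 alternatives (adjusted p of up to 0.149), including the fits without any 1 of the FW1256-exposed replicates and without unexposed WT replicates 1, 2 or 4, and the gene overlaps C15C8.7. *hrg-1*, for a lysosomal heme transporter, was called neither in FW1256-exposed WT (adjusted p = 0.798) nor in *eat-2* mutants (adjusted p = 0.173), although the replicate block called it higher in *eat-2* mutants, by 0.35 (adjusted p = 0.043). *fecl-1*, for ferrochelatase, was lower in *eat-2* mutants, with -0.30 (adjusted p = 0.000514), and had -0.08 in FW1256-exposed WT (adjusted p = 0.129, and 0.0269 with library size alone).

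**Figure D5:**
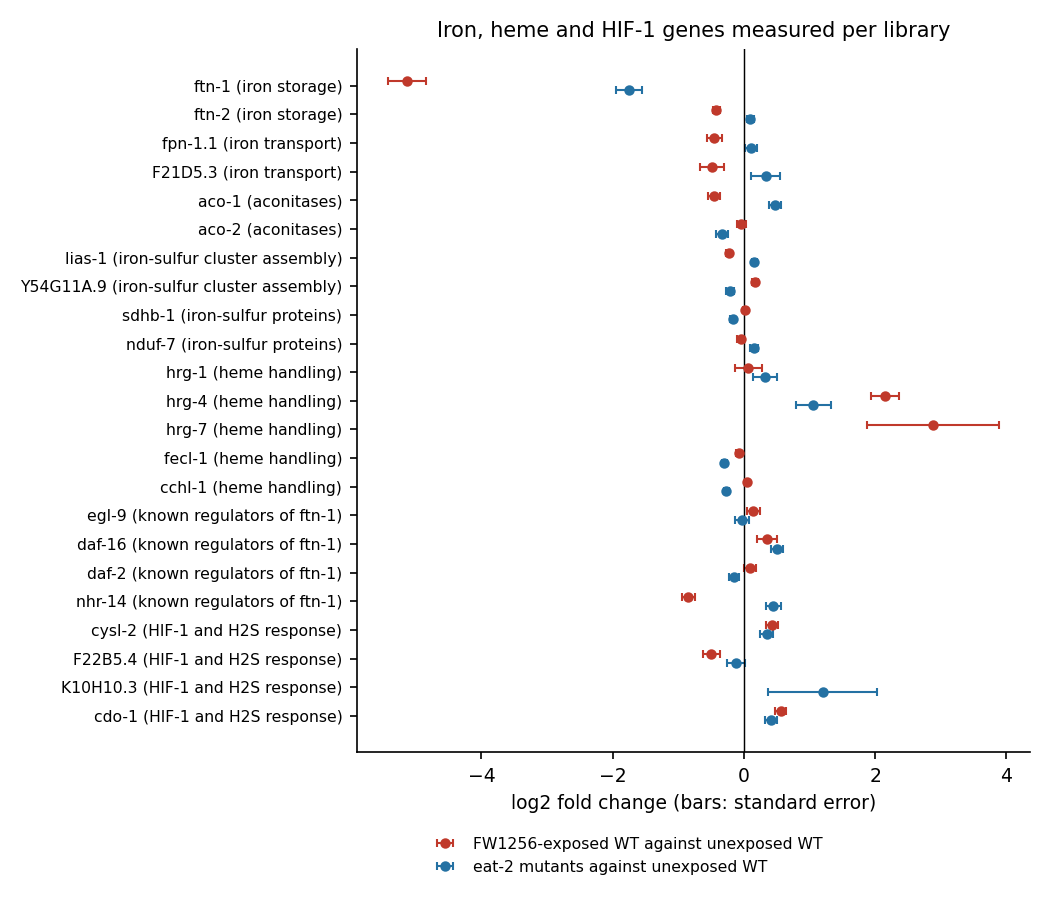
log2 fold change against unexposed WT with its standard error, for FW1256-exposed WT (red) and *eat-2* mutants (blue), of each iron, heme, regulator and HIF-1 gene tested, with its list in brackets. *ftn-1* lies farthest to the left in both (-5.14 and -1.75), *hrg-4* lies to the right in both (2.15 and 1.06), and *aco-1*, *lias-1* and *nhr-14* are among the genes that lie on different sides of 0.

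Regulators of *ftn-1* and of the response to hypoxia and H2S were read in the same way, and 8 of 19 listed genes were in the tables. In FW1256-exposed WT against unexposed WT, 7 were tested, of which 2 were called higher and 2 lower, and in *eat-2* mutants 8 were tested, of which 4 were called higher and 0 lower. The shares of all genes tested that were called in either direction were 50.2% for FW1256 and 44.2% for *eat-2*. Counted in either direction, the shares of these few genes lay near this background. By direction, 922 of 3616 genes were called higher and 895 lower for FW1256. For *eat-2*, 825 of 3786 genes were called higher and 849 lower, whereas all 4 calls among these 8 genes were higher. The lists were too short to read anything from this direction. *hif-1* and *elt-2* were not analysed here. *nhr-14*, a nuclear receptor known to repress iron uptake in the intestine, shared the directions of *aco-1* and not those of *ftn-1*. It averaged 11.6 ± 1.00 CPM in FW1256-exposed WT, 28.0 ± 3.45 CPM in *eat-2* mutants and 20.7 ± 1.43 CPM in unexposed WT (SD, n = 4 each), without overlap, with log2 fold changes against unexposed WT of -0.85 (SE 0.10, adjusted p = 0.000178) and 0.45 (SE 0.11, adjusted p = 0.00731, edgeR). *daf-16*, the FOXO factor that promotes *ftn-1*, was higher in *eat-2* mutants by 0.50 (adjusted p = 0.002) and had 0.35 in FW1256-exposed WT (adjusted p = 0.0755), a difference that was called in 5 of 15 alternatives, among them the fits without FW1256-exposed WT replicate 1 or 4 (adjusted p down to 0.0301). *egl-9*, which targets HIF-1 for degradation, had 0.14 with an adjusted p of 0.256 for FW1256 and -0.03 with an adjusted p of 0.828 for *eat-2*. *daf-2*, the insulin receptor gene, was called neither in FW1256-exposed WT (adjusted p = 0.446) nor in *eat-2* mutants (adjusted p = 0.15), but was called in *eat-2* mutants without unexposed WT replicate 1 and with the replicate block (adjusted p down to 0.0155). *hrg-1*, *egl-9*, *daf-16*, *daf-2* and F22B5.4 also overlap other annotated genes.

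Genes of the HIF-1 and H2S list went in both directions. *cysl-2*, for a cysteine synthase-like enzyme, was higher in FW1256-exposed WT by 0.43 (SE 0.09, adjusted p = 0.00334) and in *eat-2* mutants by 0.35 (SE 0.10, adjusted p = 0.0199), and it overlaps *vnut-1*. *cdo-1*, for the iron enzyme cysteine dioxygenase, was higher in both by 0.56 (adjusted p = 0.000458) and 0.41 (adjusted p = 0.00477), and it overlaps F56F10.2. F22B5.4 was lower in FW1256-exposed WT by -0.50 (adjusted p = 0.0109) and had -0.12 in *eat-2* mutants (adjusted p = 0.472, edgeR throughout). K10H10.3 (*dhs-8*) had at most 3.29 CPM in any library and was not tested for FW1256.

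Genes whose levels ran most like those of *ftn-1* were ranked by Pearson correlation of log2 CPM over the 12 libraries, among 2637 genes with a symbol and a mean of at least 100 counts. The points share libraries and scaling, and the 3 groups set most of each correlation. The 5 most alike were *ule-4* (r = 0.977), *srlf-7* (0.974), T04C12.8 (0.974), *scl-2* (0.970) and C23F12.4 (0.964). *scl-2*, which encodes a secreted SCP-domain protein, averaged 53.8 ± 9.05 CPM in FW1256-exposed WT, 293 ± 66.6 CPM in *eat-2* mutants and 658 ± 159 CPM in unexposed WT (SD, n = 4 each). *vha-14*, for a V-ATPase subunit, was most opposite (r = -0.978), followed by *epc-1* (-0.972) and *har-1* (-0.968). Within groups these correlations were weaker or had the other sign: the correlation of deviations from group means with *ftn-1* was 0.715 for *ule-4*, 0.344 for *srlf-7*, -0.085 for T04C12.8, -0.00567 for *scl-2* and -0.591 for C23F12.4. *ftn-2* correlated with *ftn-1* at 0.860 over all libraries and 0.680 within groups.

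For *aco-1*, the nearest genes were *mboa-3* (r = 0.988), *tag-196*, for a cathepsin-like protease (0.987), *cytb-5.2*, for a cytochrome b5 (0.985), *fbxc-52* (0.982) and *exc-9* (0.981), and the most opposite were *wago-1*, for a germline Argonaute (-0.992), *mccc-1* (-0.986) and *glh-4*, for a germline helicase (-0.985). Within groups the correlations remained between 0.794 and 0.905 for the first 5 and were -0.904, -0.877 and -0.888 for the last 3, as deviations from group means over 12 libraries. *aco-1* and *ftn-1* correlated at 0.584 over all libraries and at -0.190 within groups, and *aco-1* and *ftn-2* at 0.857 and 0.208. The genes most like and most opposite to *aco-1* were picked for their correlation over these 12 libraries, so their values are not set against those of the ferritins.

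The nearest genes in the tables on either side of *ftn-1* were pseudogenes, 10052 bases before it (at most 0.828 CPM) and 2743 bases after it (at most 0.126 CPM), and were not tested. On either side of *aco-1*, *inx-2*, an innexin gene 43141 bases before it, had a log2 fold change of -0.50 in FW1256-exposed WT (adjusted p = 0.00201) and 0.16 in *eat-2* mutants (adjusted p = 0.213). *pgp-3*, for an ABC transporter 8829 bases after it, had -0.62 (adjusted p = 0.00303) and 0.31 (adjusted p = 0.0895). In FW1256-exposed WT, *aco-1* and both neighbours were called lower than in unexposed WT, where 24.8% of all genes tested were called lower.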

How the data were processed

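Total RNA of 12 pools of whole nematodes was sequenced. The authors mapped reads to the WBcel235 transcriptome with kallisto 0.46.0, summed transcripts to genes as length-scaled values and deposited estimated counts per gene and library, not normalised between libraries. The authors' deposited comparison tables (made with DESeq2 1.24.0 per the submitters' notes) hold mean counts, fold changes and p-values and were not used.

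Estimated counts were rounded to whole numbers. Genes that passed filterByExpr were scaled by TMM and tested by glmQLFit and glmQLFTest (edgeR 4.0.16, R 4.3.3) in a separate fit for each pair of groups, with Benjamini-Hochberg adjustment over all genes tested and a threshold of 0.05. Fold changes have the FW1256-exposed or *eat-2* group over unexposed WT, or FW1256-exposed WT over *eat-2* mutants, with a prior count of 0.125, and its standard error was derived from the F statistic. CPM were computed after TMM over all 12 libraries, and log2 CPM with a prior count of 2. Totals cover the listed genes only, so CPM exceed those over a full library and genes with few counts are imprecise. Replicates of a group differed by more than sampling noise (chi-square per gene of 11.6 or more for every pair). All 12 labelled libraries were used. The labels name no batch. Scripts were tested on simulated data.

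Symbols, positions and overlaps came from Ensembl release 115, in which 5271 of 5272 identifiers were found. The genes and lists were chosen with earlier results of these data known. Named genes were the 3 members, up to 4 genes with the largest fold changes per list, the 5 most and 3 least like *ftn-1* and *aco-1*, and their nearest neighbours in the tables. Promoters were not searched for motifs, and no sequence was used here. Alternatives were DESeq2 1.42.0, other size factors, library size alone, no filter or a mean of at least 10 counts, 1 fit over all groups, a replicate block, other prior counts and each library left out in turn.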

Additional observations from a re-analysis of the deposited data

Results flagged for a closer look

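In 2 of 66 groups of 4 libraries examined among the listed genes, 1 library stood apart from the other 3 of its group by Dixon's criterion, where chance flags about 1 group in 20. *hrg-7*, a gene of heme signalling, had 6.12 CPM in *eat-2* replicate 2, against 0 to 0.319 CPM in the other 3 *eat-2* libraries. F22B5.4, from the list of the response to HIF-1 and H2S, had 8.42 CPM in unexposed WT replicate 3, against 10 to 10.2 CPM in the other 3 unexposed WT libraries. No group of *ftn-1*, *ftn-2* or *aco-1* had such a library.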

How the results depend on the processing

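All 9 log2 fold changes of *ftn-1*, *ftn-2* and *aco-1* kept their sign under 17 alternatives each. Against unexposed WT, those of FW1256-exposed WT ranged from -5.38 to -4.97 for *ftn-1*, from -0.47 to -0.38 for *ftn-2* and from -0.51 to -0.35 for *aco-1*, and those of *eat-2* mutants from -1.93 to -1.64, from 0.05 to 0.15 and from 0.42 to 0.58. For FW1256-exposed WT against *eat-2* mutants, *ftn-2* moved past its spread with library size alone (-0.59, against -0.52 with TMM). Among listed genes, 81 of 103 calls or non-calls held under each alternative, 9 calls were lost and 13 gained under at least 1, and none reversed. Whether the replicate numbers pair the samples was not settled: correlations of same-numbered libraries ran from -0.0394 to 0.219. Some exceeded those with other numbers, as for *eat-2* replicate 4 with unexposed WT (0.218, against at most -0.0245). Others did not, as for *eat-2* replicate 1 with unexposed WT (0.0286, against up to 0.122). With the replicate block, 1767, 1821 and 2593 genes were called (FW1256-exposed WT against unexposed WT, *eat-2* mutants against unexposed WT, FW1256-exposed WT against *eat-2* mutants), against 1817, 1674 and 2575 without it, and *ftn-1* had -5.15, -1.72 and -3.42. With 15 to 33 counts per library, *ftn-1* in FW1256-exposed WT is the least precise of the levels given for the 3 genes.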
